A study of Mus musculus with 9 samples.

Results

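The genes described here are 35 genes that mark endothelium, the cells that line blood vessels. They were taken by name from a fixed list, and a probe set counted for a gene only where its annotation gave that symbol and no other. All 35 had such a probe set, 65 in total, out of 18193 genes with 1 in the whole table. Each gene is represented by its brightest probe set, judged by the mean of the 9 arrays. A log2 value of 4 was taken as the detection level. The test covered genes that reached it on 3 or more arrays, which were 33 of the 35 and 10937 of all genes. The other 2, Tie1 and Rasip1, are given as values only. By role, 11 of the 35 encode receptors and other signalling proteins of the surface, 11 encode junction and adhesion proteins and 4 encode transcription factors. A further 4 encode intracellular effectors, 3 encode secreted proteins and 2 encode specialised surface proteins of capillaries.

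Endothelial cells hold together through junctions built on VE-cadherin and claudin-5, sense growth factors through the VEGF and angiopoietin receptors, and keep their identity through transcription factors of the ETS and SOX families. In the thymus, vessels bring in the progenitors of T cells and let mature T cells leave. Endothelium is also known as a radioresistant source of factors that support thymic epithelium after damage.

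Transcripts were measured in cells of the thymus of female C57BL/6J mice, aged 6 to 8 weeks, after magnetic depletion of cells that carry CD45. One group was untreated, and the other 2 were taken at day 4 or day 7 after SL-TBI, read here as sublethal total body irradiation, at 550 cGy and without hematopoietic rescue. Each group had 3 samples, each made from the pooled cells of several mice and hybridised, from 500 ng of RNA, to 1 Affymetrix MOE 430 2.0 array. The labels call the cells non-hematopoietic stroma, and the protocol once calls them ECs without saying what that means. Nothing in the labels says that replicates were pooled from different animals, so the p-values measure the spread between these samples only, and that spread may be technical. The preparation was a mixture on all arrays. Epcam, an epithelial surface protein, averaged 11.18, 11.08 and 10.78 (log2) in untreated, day 4 and day 7 samples, and Pdgfra, a receptor of fibroblasts, 9.35, 10.61 and 10.01. Ptprc, which encodes CD45 itself, averaged 12.22, 4.64 and 9.51, so transcripts of blood cells remained in the untreated samples and differed strongly between groups. On an array that measures shares of the input RNA, fewer cells of a type and less RNA per cell cannot be told apart.

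Arrays of a group differed in their endothelial genes, and 1 untreated array stood apart. The mean log2 value of the 33 tested genes was 4.42, 4.68 and 5.94 on untreated replicates 1, 2 and 3. It was 5.95, 5.27 and 5.79 on the day 4 arrays and 7.51, 7.41 and 7.40 on the day 7 arrays. Untreated replicate 3 thus lay at the height of the day 4 arrays, and every day 7 array lay above all others. Untreated replicate 3 was the highest untreated array for 31 of the 33 genes, against 28.1% of all genes tested. For 18 genes, or 54.5%, it exceeded both other untreated arrays by at least 1 log2 unit, against 0.521% of all genes. The median gap between it and the mean of the other untreated arrays was 1.56, from 0.03 for Calcrl to 2.56 for Aplnr, against -0.04 over all genes. The array was singled out for its higher endothelial signal, so these counts describe it and do not test it. Replicate 1 was the lowest untreated array for 25 of the 33 genes, against 26.7% of all genes. At day 4, replicate 2 was the lowest array for 31 genes, against 27.7% of all genes, and lay a median of 0.55 below the mean of the other day 4 arrays. That array also had the largest 3-prime minus 5-prime difference of the control probe sets, a sign of RNA quality, at 3.32 for Actb and 1.61 for Gapdh. The range over all arrays was 2.16 to 3.32 for Actb and 0.68 to 1.61 for Gapdh, and the 3 day 4 arrays were the highest for both. Its part in the results was not tested. The number of endothelial genes at or above the detection level was 17, 21 and 29 on the untreated arrays, 28, 26 and 27 at day 4, and 33 on each day 7 array.

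**Figure D1:**
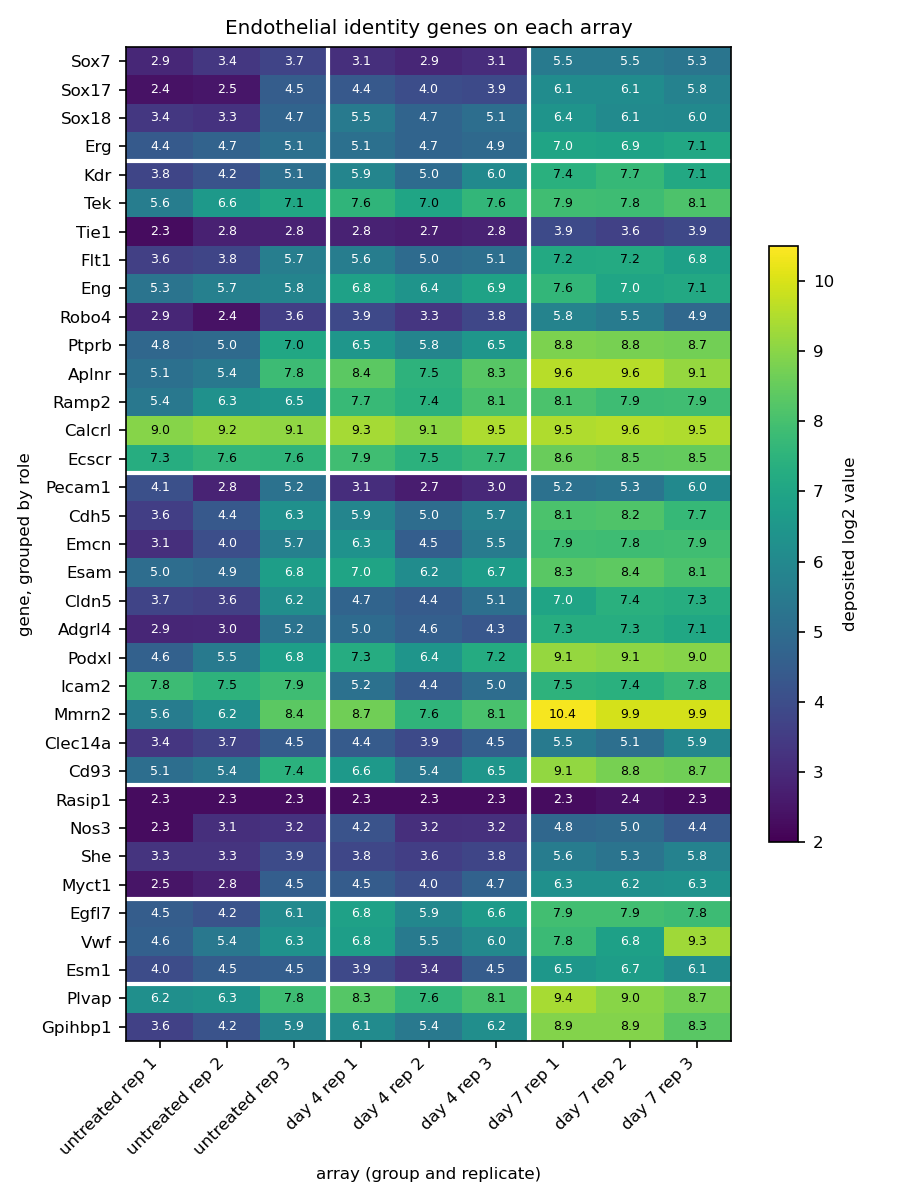
Log2 values of the 35 endothelial genes (rows, grouped by role) on the 9 arrays (columns: untreated, day 4 and day 7, replicates 1 to 3). The day 7 columns are the brightest for nearly all genes, and untreated replicate 3 is brighter than untreated replicates 1 and 2 for most.

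At day 7, nearly all endothelial genes were higher than in untreated samples. Of the 33 tested, 32 rose at an adjusted p under 0.05 (limma with Benjamini-Hochberg adjustment over all 10937 genes), or 97%, against 32.1% of all genes. By at least 2-fold, 31 rose, against 8.6% of all genes. For 31 genes every day 7 array lay above every untreated array, against 37.5% of all genes. The count of genes that fell was 0, against 22% of all genes, and was 0 also at an unadjusted p under 0.05, against 24.3%. The median difference was 2.52 on the log2 scale, with quartiles of 1.89 and 3.05, against a median of 0.09 over all genes. The gene without a call was Icam2. Robo4, Sox7 and She reached the detection level on the day 7 arrays only, so they entered the test through the group in which they were high. Pecam1 and Nos3 also reached the level on 3 arrays only with the day 7 arrays included. All of these genes are part of these counts. Untreated replicate 3 itself lay below every day 7 array for 31 genes, against 52% of all genes. Without it, 32 genes rose, against 28.3% of all genes, and 31 rose by at least 2-fold, against 8.35%; the median was then 2.96.

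**Figure D2:**
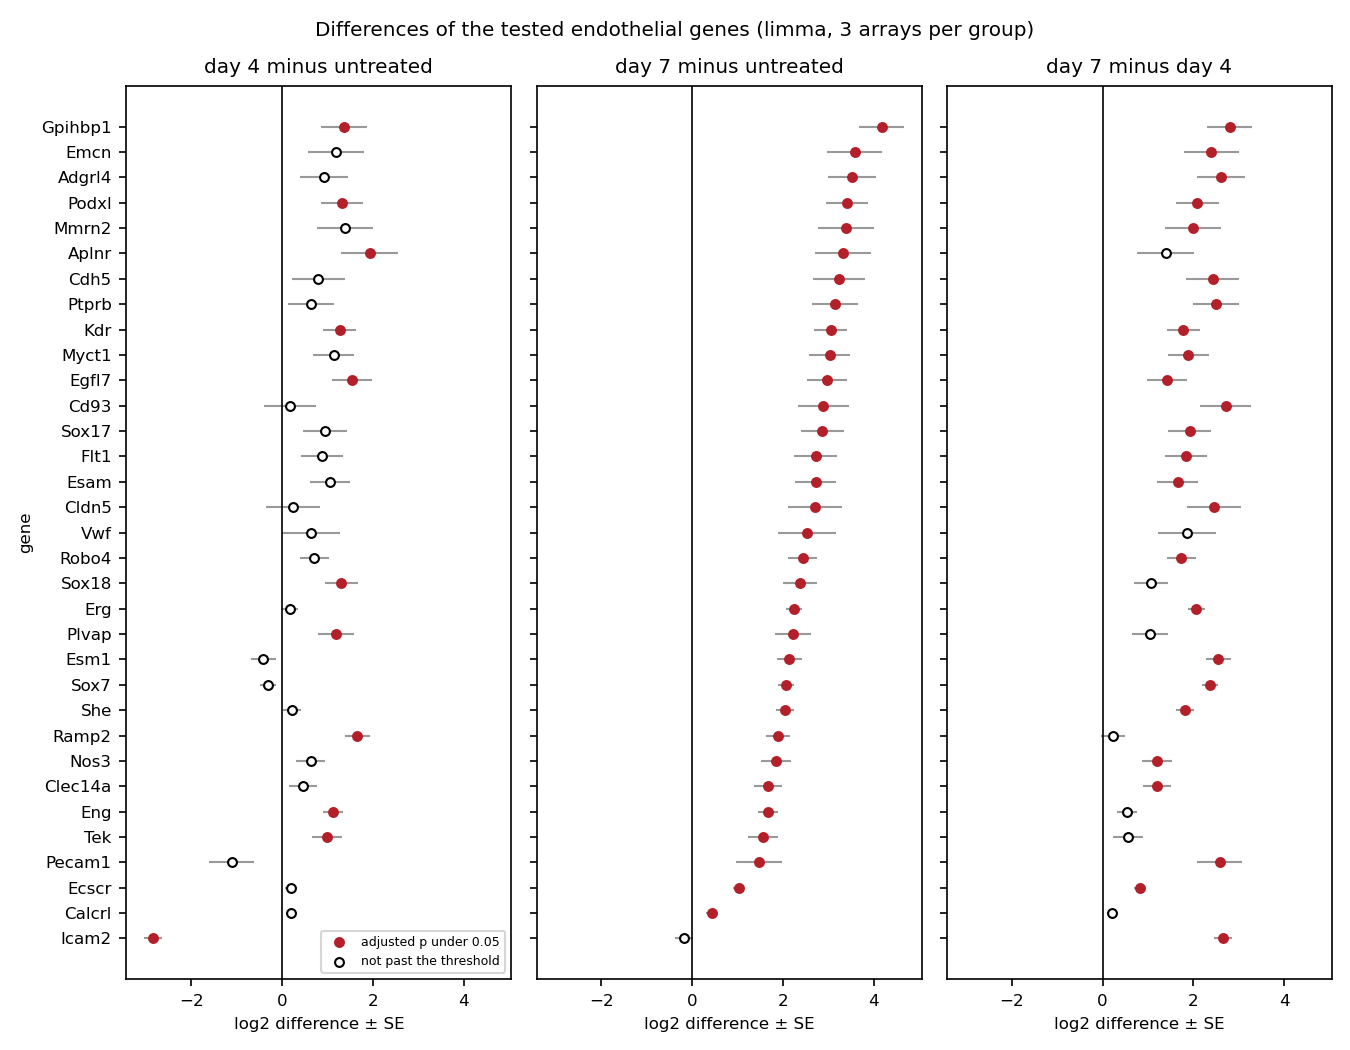
Log2 differences of the 33 tested endothelial genes with their standard errors in the 3 comparisons; filled points have an adjusted p under 0.05 (limma). Day 4 minus untreated (range -2.84 to 1.93) has few filled points, day 7 minus untreated (-0.18 to 4.17) is filled for all but Icam2, and day 7 minus day 4 (0.22 to 2.80) lies above 0 for every gene.

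All 10 tested receptor and signalling genes were higher at day 7 than in untreated samples, against 32.1% of all genes. Differences ranged from 0.43 for Calcrl to 3.32 for Aplnr, with a median of 2.16. Kdr, the main receptor for VEGF-A, read 3.78, 4.18 and 5.10 on the untreated arrays, 5.88, 4.96 and 6.03 at day 4, and 7.40, 7.69 and 7.13 at day 7. Untreated replicate 3 lay above day 4 replicate 2, and the day 7 arrays lay above all others. Day 7 exceeded untreated by 3.05 (SE 0.37, adjusted p 2.4e-04), 8.3-fold, with 2 of the 3 untreated arrays at or above the detection level. Flt1, a VEGF receptor that acts largely as a decoy, read 3.60, 3.77 and 5.65 in untreated, 5.59, 4.96 and 5.12 at day 4, and 7.17, 7.20 and 6.82 at day 7. Its untreated replicate 3 was above every day 4 array, and day 7 exceeded untreated by 2.72 (SE 0.47, adjusted p 0.00138). Aplnr, the apelin receptor, read 5.13, 5.39 and 7.82 in untreated, 8.37, 7.48 and 8.30 at day 4, and 9.59, 9.58 and 9.14 at day 7. Untreated replicate 3 again lay within the day 4 range, and day 7 exceeded untreated by 3.32 (SE 0.62, adjusted p 0.00199), 9.99-fold. Without untreated replicate 3 the difference was 4.17, 18.1-fold, for Aplnr and 3.38 for Flt1. For Flt1 both remaining untreated arrays were below the detection level, so 3.38 gives no measured fold.

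The angiopoietin receptor Tek and the phosphatase Ptprb, which restrains it, both rose by day 7. Tek read 5.59, 6.56 and 7.07 in untreated, 7.56, 7.00 and 7.63 at day 4, and 7.89, 7.85 and 8.12 at day 7. Its day 4 replicate 2 lay below untreated replicate 3, the other day 4 arrays lay above all untreated arrays, and day 7 exceeded untreated by 1.55 (SE 0.33, adjusted p 0.00409). Ptprb read 4.84, 4.95 and 7.05 in untreated, 6.45, 5.84 and 6.48 at day 4, and 8.83, 8.76 and 8.69 at day 7. Untreated replicate 3 was above all day 4 arrays for this gene, and day 7 exceeded untreated by 3.15 (SE 0.51, adjusted p 9.7e-04), or by 3.87 without that array. Tie1, the partner receptor of Tek, stayed below the detection level on all arrays, at 2.27 to 2.82 in untreated, 2.73 to 2.82 at day 4 and 3.64 to 3.92 at day 7. Its day 7 arrays lay above the others, and no fold is given. Robo4, a receptor that stabilises vessels, was below the level on all untreated and day 4 arrays and read 5.81, 5.53 and 4.86 at day 7, at least 2.64-fold higher than in either group (adjusted p 3.7e-04 against untreated and 0.00586 against day 4).

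Eng, a co-receptor for TGF-beta family ligands, read 5.26, 5.70 and 5.82 in untreated, 6.85, 6.39 and 6.91 at day 4, and 7.64, 6.99 and 7.13 at day 7. The 3 groups did not overlap, and day 4 already exceeded untreated by 1.12 (SE 0.22, adjusted p 0.00182). Ramp2, which pairs with Calcrl to form the adrenomedullin receptor, read 5.40, 6.30 and 6.48 in untreated, 7.74, 7.38 and 8.05 at day 4, and 8.09, 7.86 and 7.90 at day 7. Its day 4 arrays lay above all untreated arrays by a group difference of 1.66 (SE 0.27, adjusted p 6.8e-04), and day 4 and day 7 overlapped, with a difference of 0.23 (SE 0.27, adjusted p 0.566). Calcrl moved least of the receptors. It read 8.96, 9.17 and 9.10 in untreated, 9.34, 9.05 and 9.46 at day 4, and 9.48, 9.55 and 9.48 at day 7. Day 7 exceeded untreated by 0.43 (SE 0.12, adjusted p 0.0129), 1.34-fold. This call was lost when untreated replicate 1 was left out, and relative to the fibroblast and pericyte lists the difference was -0.47 and -0.97. Ecscr, a regulator of endothelial chemotaxis, also moved little, by 1.02 at day 7 (SE 0.13, adjusted p 3.2e-04), with 7.30 to 7.60 in untreated and 8.46 to 8.55 at day 7, and relative to the pericyte list its difference was -0.38.

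Of the 11 junction and adhesion genes, 10 were higher at day 7 than in untreated samples, against 32.1% of all genes, with a median difference of 2.89. Cdh5, which encodes VE-cadherin, read 3.59, 4.38 and 6.28 in untreated, 5.87, 5.03 and 5.74 at day 4, and 8.09, 8.16 and 7.70 at day 7. Untreated replicate 3 was above all day 4 arrays, and day 7 exceeded untreated by 3.23 (SE 0.58, adjusted p 0.0016), 9.4-fold, with 2 untreated arrays at or above the level. Without that array the difference was 4.00, 16-fold. Cldn5, the claudin of endothelial tight junctions, read 3.73, 3.60 and 6.20 in untreated, 4.74, 4.43 and 5.12 at day 4, and 6.98, 7.40 and 7.30 at day 7. It had the same order, with untreated replicate 3 the only untreated array above the level, and a difference of 2.71 (SE 0.59, adjusted p 0.0045), or 3.56 without it. The 3.56 thus rests on untreated values below the level and gives no measured fold. Emcn, a sialomucin of capillary and venous endothelium, had the largest difference of this group at 3.58 (SE 0.61, adjusted p 0.00129). It read 3.15, 4.03 and 5.69 in untreated, 6.33, 4.55 and 5.55 at day 4, and 7.89, 7.85 and 7.88 at day 7. Its day 7 arrays were nearly equal and lay above all others, and the difference was 4.28 without untreated replicate 3.

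The 6 further genes of this group ranged from 1.67 to 3.52 above untreated at day 7. Adgrl4, an adhesion receptor of sprouting vessels, differed by 3.52 (SE 0.53), with 1 untreated array at or above the level. Podxl, a sialomucin of the luminal surface, differed by 3.41 (SE 0.47), and Mmrn2, a matrix protein of the endothelial surface, by 3.38 (SE 0.62). Mmrn2 has Cd93 and Clec14a as binding partners, and these differed by 2.89 (SE 0.57) and 1.67 (SE 0.31). Esam, a junction protein shared with platelets, differed by 2.72 (SE 0.45). Their adjusted p lay between 4.2e-04 for Podxl and 0.00273 for Cd93. Without untreated replicate 3 the difference was 4.28 for Adgrl4, 4.21 for Mmrn2, 3.62 for Cd93 and 3.33 for Esam. For Adgrl4 both remaining untreated arrays were below the level, so 4.28 gives no measured fold.

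The gene most used to mark endothelium, Pecam1, did not follow the others closely. It read 4.06, 2.84 and 5.20 in untreated, 3.10, 2.69 and 2.98 at day 4, and 5.17, 5.30 and 6.05 at day 7. All day 4 arrays were below the detection level, and day 7 overlapped untreated through replicate 3. Day 7 exceeded untreated by 1.47 (SE 0.50, adjusted p 0.0345), a call that was lost when untreated replicate 1 or 2 or any 1 of the day 7 arrays was left out, with a difference of 0.87 without untreated replicate 2. Against day 4, Pecam1 at day 7 was at least 2.84-fold higher (adjusted p 0.00682). Its day 4 difference from untreated was -1.11 (SE 0.50, adjusted p 0.0815) and did not pass the test. The part of blood cells in the level of Pecam1 was not tested.

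Icam2, an adhesion protein that lymphocytes, monocytes and platelets carry as well as endothelium, was the only one of the 33 that fell at day 4 on the deposited scale. It read 7.83, 7.48 and 7.86 in untreated, 5.18, 4.42 and 5.05 at day 4, and 7.48, 7.38 and 7.76 at day 7. The day 4 arrays lay below all others, by 2.84 against untreated (difference -2.84, SE 0.20, adjusted p 6.7e-06). Day 7 overlapped untreated, with a difference of -0.18 (SE 0.20, adjusted p 0.48). The thymocyte list also fell at day 4. Its 11 tested genes had array means of 9.12 to 9.50 in untreated, 3.30 to 3.61 at day 4 and 6.71 to 6.85 at day 7. All 11 were lower than in untreated samples at day 4, against 21.4% of all genes. At day 7 all 11 were still lower (median -2.58), against 22% of all genes, whereas Icam2 was not called. The part of blood cells in the level of Icam2 was not tested.

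All 4 transcription factor genes were higher at day 7 than in untreated samples, from 2.07 to 2.87, against 32.1% of all genes higher. Erg, an ETS factor that maintains endothelial identity, read 4.40, 4.71 and 5.14 in untreated, 5.14, 4.74 and 4.89 at day 4, and 6.97, 6.91 and 7.09 at day 7. Day 4 overlapped untreated (difference 0.17, SE 0.18, adjusted p 0.425), and day 7 lay above both, by 2.24 against untreated (SE 0.18, adjusted p 3.9e-05). Sox7, Sox17 and Sox18 form the SOXF subfamily, which acts in vessel and arterial development. Sox7 was below the detection level on every untreated and day 4 array, at 2.91 to 3.74, and read 5.46, 5.48 and 5.32 at day 7, at least 2.67-fold higher (adjusted p 5.1e-05 against each group). Sox17 read 2.40, 2.52 and 4.51 in untreated, 4.36, 4.02 and 3.90 at day 4, and 6.13, 6.13 and 5.78 at day 7, a rise of 2.87 (SE 0.48, adjusted p 0.00116). Sox18 read 3.37, 3.26 and 4.74 in untreated, 5.50, 4.74 and 5.07 at day 4, and 6.40, 6.07 and 6.04 at day 7. At day 4, Sox18 rose by 1.31 (SE 0.37, adjusted p 0.012). The day 4 difference was 0.95 for Sox17 (SE 0.48, adjusted p 0.112) and -0.31 for Sox7 (adjusted p 0.163). Without untreated replicate 3, Sox17 also passed the test, at 1.64 (adjusted p 9.9e-05). The difference between the 3 genes was not tested. At day 7, Sox17 differed from untreated by 3.55 without that array. Both remaining untreated arrays of Sox17 were below the detection level, so neither 1.64 nor 3.55 gives a measured fold.

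Most of the 35 genes moved together, and 4 of the 35 encode ETS and SOX factors. The 250 bases before the start sites were therefore searched for core letters that such factors are known to bind. RefSeq windows of build GRCm38.p6 were held for 17 of the 35 genes, 21 windows in all. AGGAAG, an ETS-type core, was found on either strand (CTTCCT on the other) in 11 of the 21 windows, or 52.4%, against 29.5% of all 32851 windows. Counted by gene, it was found for 10 of 17, or 58.8%, against 32.3% of 27025 genes. The 10 include Tie1 and Rasip1, which were below the detection level and not tested. The 27025 are all genes with a window, whether or not they were tested on the arrays. AACAAT, a SOX-type core (ATTGTT on the other strand), was found in 4 windows, or 19%, against 9.42%. Another ETS core, CCGGAA, and the FOX core TAAACA were each found in 2 windows, or 9.52%, against 12% for both, and the GATA core AGATAA in 2 against 9.99%. These searches read each motif with its reverse complement, and none of the 5 motifs contains another. Some can overlap, such as TAAACA with AACAAT or with AGATAA, so the counts are not fully separate. A match is not a bound site. At least 2 copies of AGGAAG were found in 4 windows, against 6.25% of all windows; these 4 belong to Egfl7, Emcn, Eng and Flt1. They are shown with that of Calcrl, the receptor that moved least, which also held 1 copy and 1 AACAAT. In the sequences, 5′ to 3′ along the strand of the gene, capitals mark matches to AGGAAG or AACAAT on either strand.
Egfl7 (chr2:26580833-26581082, plus strand): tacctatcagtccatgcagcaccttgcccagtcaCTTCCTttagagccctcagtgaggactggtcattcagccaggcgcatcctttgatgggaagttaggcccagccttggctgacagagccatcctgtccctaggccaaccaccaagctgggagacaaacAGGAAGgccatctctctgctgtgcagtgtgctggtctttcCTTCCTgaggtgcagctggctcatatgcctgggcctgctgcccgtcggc
Emcn (chr3:137340828-137341077, plus strand): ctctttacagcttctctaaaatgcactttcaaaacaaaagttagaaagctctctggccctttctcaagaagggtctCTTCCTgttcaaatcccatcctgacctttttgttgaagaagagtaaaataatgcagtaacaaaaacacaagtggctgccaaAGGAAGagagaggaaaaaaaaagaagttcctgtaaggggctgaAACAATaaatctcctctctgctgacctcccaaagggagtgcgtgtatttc
Eng (chr2:32646345-32646594, plus strand): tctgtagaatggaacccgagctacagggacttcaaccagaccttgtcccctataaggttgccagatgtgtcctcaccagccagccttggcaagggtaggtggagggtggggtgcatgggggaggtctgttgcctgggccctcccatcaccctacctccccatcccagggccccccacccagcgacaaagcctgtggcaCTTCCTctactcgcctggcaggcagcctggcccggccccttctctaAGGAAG
Flt1 (chr5:147726012-147726261, minus strand): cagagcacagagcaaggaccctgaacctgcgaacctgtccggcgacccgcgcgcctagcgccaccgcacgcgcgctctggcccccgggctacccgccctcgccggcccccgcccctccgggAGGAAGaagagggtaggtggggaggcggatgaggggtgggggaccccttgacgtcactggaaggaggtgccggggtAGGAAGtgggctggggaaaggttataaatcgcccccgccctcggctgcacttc
Calcrl (chr2:84425267-84425516, minus strand): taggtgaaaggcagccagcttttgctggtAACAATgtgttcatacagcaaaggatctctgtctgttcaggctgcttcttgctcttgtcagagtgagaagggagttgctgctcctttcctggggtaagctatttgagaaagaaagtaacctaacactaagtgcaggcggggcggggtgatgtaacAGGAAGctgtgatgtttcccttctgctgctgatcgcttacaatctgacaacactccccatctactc

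Both capillary surface genes were higher at day 7, against 32.1% of all genes. Gpihbp1, the protein that carries lipoprotein lipase to the capillary lumen, had the largest difference from untreated among the 33. It read 3.63, 4.17 and 5.86 in untreated, 6.10, 5.44 and 6.20 at day 4, and 8.92, 8.92 and 8.31 at day 7. Day 4 and untreated overlapped through untreated replicate 3, and day 7 lay above both, by 4.17 against untreated (SE 0.50, adjusted p 2.3e-04), 17.9-fold, with 2 untreated arrays at or above the level. Without untreated replicate 3 the difference was 4.82, 28.2-fold. Plvap, which forms the diaphragms of fenestrae and caveolae, read 6.23, 6.35 and 7.85 in untreated, 8.27, 7.64 and 8.07 at day 4, and 9.40, 8.98 and 8.72 at day 7. Day 7 exceeded untreated by 2.22 (SE 0.40, adjusted p 0.00166). At day 4 the difference was 1.19 (SE 0.40, adjusted p 0.0274), a call lost without untreated replicate 1 (0.90, adjusted p 0.099) or 2 (0.96, adjusted p 0.087) and without day 4 replicate 1 or 3.

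The 3 secreted products were higher at day 7 by 2.14 to 2.97, against 32.1% of all genes higher. Egfl7, a matrix protein of growing vessels, read 4.52, 4.18 and 6.07 in untreated, 6.85, 5.92 and 6.62 at day 4, and 7.92, 7.92 and 7.83 at day 7. It rose at day 4 (1.54, SE 0.44, adjusted p 0.0132) and again from day 4 to day 7 (1.43, SE 0.44, adjusted p 0.0403); the second call was lost when any 1 of the day 4 or day 7 arrays was left out, with adjusted p from 0.0576 to 0.132. Esm1, a proteoglycan of tip cells, the leading cells of sprouts, read 3.98, 4.46 and 4.53 in untreated, 3.88, 3.37 and 4.48 at day 4, and 6.50, 6.73 and 6.14 at day 7. Its day 4 arrays overlapped untreated (difference -0.41, SE 0.28, adjusted p 0.229), and day 7 lay above both (2.14 against untreated, SE 0.28, adjusted p 3.5e-04). Vwf, the clotting protein stored by endothelium and platelets, read 4.61, 5.41 and 6.32 in untreated, 6.78, 5.50 and 6.01 at day 4, and 7.78, 6.84 and 9.29 at day 7. Its day 7 arrays spread widely, with replicate 3 highest, and day 7 exceeded untreated by 2.52 (SE 0.64, adjusted p 0.00907), or by 1.86 without day 7 replicate 3 (adjusted p 0.0249). The smooth muscle list was also highest on day 7 replicate 3, at an array mean of 9.17 against 7.76 and 7.89 on replicates 1 and 2; its part in Vwf was not tested. Of 10 platelet genes measured, 9, among them Itga2b, Gp9 and Gp5, were below the detection level on all arrays, and the tenth, Pf4, passed the test in none of the comparisons, with differences of 0.34 at day 4, -0.30 at day 7 and -0.64 between the days.

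Of the 4 intracellular genes, 3 were tested and all 3 were higher at day 7, against 32.1% of all genes. Nos3, the endothelial nitric oxide synthase, was below the level on all untreated arrays and read 4.84, 4.95 and 4.37 at day 7, at least 1.65-fold higher (adjusted p 0.00177). The adaptor gene She was below the level on all untreated and day 4 arrays and read 5.58, 5.27 and 5.76 at day 7, at least 2.9-fold higher than in either (adjusted p 7.7e-05 against untreated and 4.1e-04 against day 4). Myct1, a regulator of endothelial trafficking, read 2.47, 2.76 and 4.53 in untreated, 4.49, 4.03 and 4.66 at day 4, and 6.26, 6.25 and 6.34 at day 7. It differed from untreated by 3.03 at day 7 (SE 0.45, adjusted p 6.8e-04), or by 3.67 without untreated replicate 3. Both remaining untreated arrays were then below the level, so 3.67 gives no measured fold. Rasip1, a regulator of vessel lumens, lay between 2.27 and 2.41 on all arrays, at the floor of the values, so it carried no measurable level.

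At day 4 the endothelial genes were less uniformly above untreated, and the count depended on untreated replicate 3. With all arrays, 10 of the 33 were higher than in untreated samples, or 30.3%, against 41.8% of all genes, so the share was below the background. By at least 2-fold, 9 rose, against 14.5% of all genes. The count of genes that fell was 1, Icam2, against 21.4% of all genes, and its fall was over 2-fold, against 8.75%. The 10 were Kdr, Tek, Eng, Egfl7, Sox18, Plvap, Gpihbp1, Podxl, Aplnr and Ramp2. Groups did not overlap for 3 of them, Eng, Sox18 and Ramp2, against 44.7% of all genes, although for Sox18 the nearest arrays both read 4.74 at this precision. The median difference was 0.88, against 0.20 over all genes, and ranged up to 1.93 for Aplnr. Untreated replicate 3 lay above every day 4 array for 13 genes, or 39.4%, against 30.3% of all genes. Untreated replicates 1 and 2 both lay below every day 4 array for 26 genes, or 78.8%, against 47.6%.

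Without untreated replicate 3, which leaves 2 untreated arrays, 24 of the 33 genes were higher at day 4, or 72.7%, against 39% of all genes. That array was singled out for its higher endothelial signal and lay above the mean of the other 2 for all 33 genes. Leaving it out therefore raises every difference from untreated by construction, and the larger count is no separate result. By at least 2-fold the count was 21, against 13.9% of all genes, and the median difference was 1.36. The 14 genes called in addition were Adgrl4, Cd93, Cdh5, Cldn5, Clec14a, Emcn, Esam, Flt1, Mmrn2, Myct1, Ptprb, Robo4, She and Sox17. Of these, Robo4 and She were below the detection level on all untreated and day 4 arrays. For Adgrl4, Cldn5, Clec14a, Flt1, Myct1 and Sox17, both remaining untreated arrays were below it. Cdh5, for example, differed by 0.80 with all arrays (SE 0.58, adjusted p 0.252) and by 1.56 without that array, and Mmrn2 by 1.39 (SE 0.62, adjusted p 0.0762) and 2.22. Among those called with all arrays, Aplnr went from 1.93 to 2.78 and Gpihbp1 from 1.37 to 2.02. The genes not called as higher either way were Pecam1, Sox7, Erg, Vwf, Icam2, Esm1, Nos3, Calcrl and Ecscr. For Sox7 and Esm1 the difference was below 0 with and without that array, at -0.31 and -0.11 for Sox7 and at -0.41 and -0.31 for Esm1. The count was 4 without untreated replicate 1, day 4 replicate 1 or day 4 replicate 3, and 6 without untreated replicate 2. Calls of Eng, Egfl7, Sox18 and Ramp2 were kept when any 1 array was left out. The other 6 were each lost without untreated replicate 1, day 4 replicate 1 or day 4 replicate 3, with adjusted p from 0.0501 for Kdr to 0.135 for Gpihbp1. With no filter on dim genes, 2 of the 10, Eng and Ramp2, passed.

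**Figure D3:**
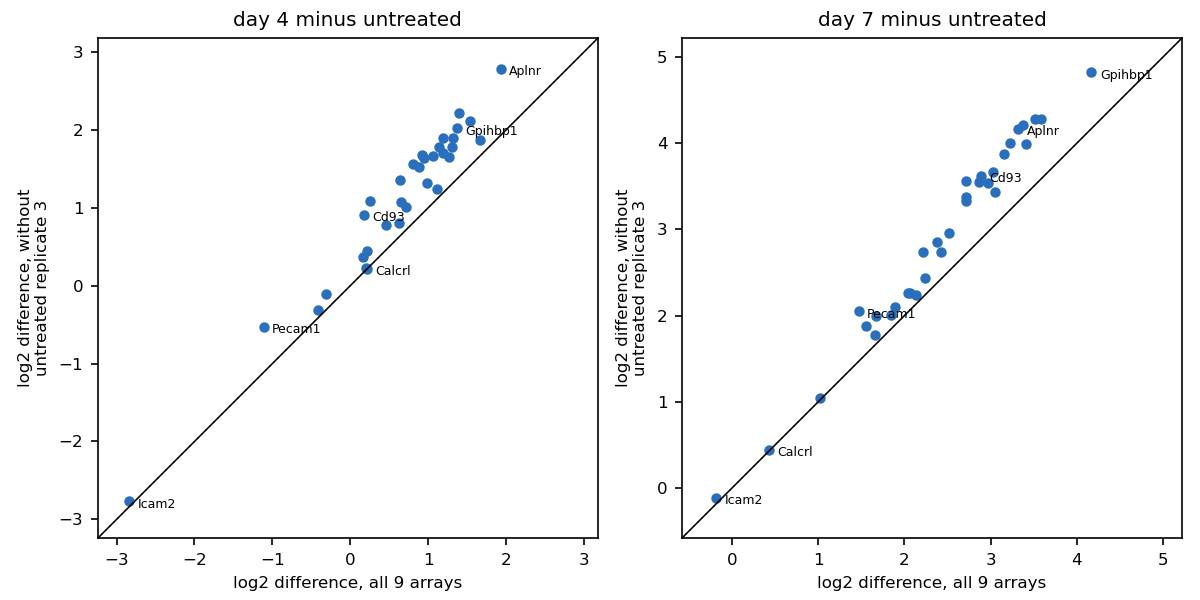
Log2 difference of each tested endothelial gene from untreated with all 9 arrays (x axis) and without untreated replicate 3 (y axis), at day 4 and day 7. Points lie above the diagonal for all 33 genes by construction, because that array lay above the mean of the other untreated arrays for each. The median moves from 0.88 to 1.36 at day 4 and from 2.52 to 2.96 at day 7.

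Between day 4 and day 7, a comparison that uses no untreated array for its difference, 25 of the 33 genes were higher at day 7, or 75.8%, against 9.78% of all genes. By at least 2-fold the count was 24, against 3.82%. The 25 include Robo4, Sox7, She, Pecam1 and Nos3, which entered the test only with their day 7 values. Every day 7 array lay above every day 4 array for 32 genes, against 17.9% of all genes; the exception was Ramp2. Here again 0 genes fell, against 17.6% of all genes, and 0 at an unadjusted p under 0.05, against 27%. The median difference was 1.87, from 0.22 for Calcrl to 2.80 for Gpihbp1, against -0.10 over all genes. Cd93, a receptor of endothelial adhesion, read 6.60, 5.37 and 6.45 at day 4 and 9.12, 8.75 and 8.67 at day 7, a difference of 2.71 (SE 0.57, adjusted p 0.00951). The estimate of the spread uses all 9 arrays, and the count was 29 without untreated replicate 3. It was 14 without day 4 replicate 2, the lowest day 4 array, when Cdh5, Cldn5, Clec14a, Egfl7, Emcn, Esam, Flt1, Mmrn2, Myct1, Nos3 and Sox17 were lost, and 16 without day 7 replicate 2.

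The genes were also sorted by the steps that passed the test with all arrays. Of the 33, 4, Kdr, Egfl7, Gpihbp1 and Podxl, rose at day 4 and again between day 4 and day 7. Another 6, Tek, Eng, Sox18, Plvap, Aplnr and Ramp2, rose at day 4 and did not pass the test between day 4 and day 7, though Sox18, Plvap and Aplnr passed it without untreated replicate 3. In 20 genes, among them Cdh5, Cldn5, Erg, Sox7 and Esm1, the rise passed the test between day 4 and day 7 and not at day 4; 14 of these 20, Cdh5 and Cldn5 included, passed it at day 4 without untreated replicate 3. Vwf and Calcrl passed neither step, Vwf passing the second without untreated replicate 3, and Icam2 fell and then rose. A p that misses the threshold does not show equal levels, and whether the steps differ between genes was not tested. The share of all genes in each of these classes was not counted. Of all genes tested, 41.8% were higher at day 4 and 9.78% between day 4 and day 7. By group means, 29 of the 33 lay in the order untreated, day 4, day 7, against 14.2% of all genes, and for 2, Eng and Sox18, no step overlapped on any array, against 2.52%. A total of 24 genes were higher at day 7 than in both other groups, against 2.85% of all genes. These comparisons share arrays and are not independent of each other.

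Several genes had more than 1 probe set, and all but 1 of the 49 probe sets tested rose at day 7. Against untreated, 48 of 49 were higher, against 30.1% of all 17819 probe sets tested, the exception being that of Icam2. Those of Robo4, Sox7 and She, and 1 more each of Flt1 and Sox17, reached the detection level on the day 7 arrays only. Those of Pecam1 and Nos3, and 1 more of Myct1, reached it on 3 arrays only with the day 7 arrays included. At day 4, 17 were higher, against 38.5%, and between day 4 and day 7, 40 were, against 9.87%. The size differed between probe sets of 1 gene. Egfl7 had 4, which differed from untreated by 1.37 to 3.78 at day 7. Sox17 had 1.40 and 2.87, Myct1 1.67 and 3.03, and Flt1 1.64, 2.02 and 2.72. For Aplnr, the probe set used above gave 1.93 at day 4 (adjusted p 0.0226 among all probe sets) and the other 0.40 (adjusted p 0.142). For Clec14a the order was the opposite, with 0.46 (adjusted p 0.226) and 0.99 (adjusted p 0.00365). The second probe set of Eng rose between day 4 and day 7 by 1.18 (adjusted p 0.0121), where the one used above gave 0.54 (adjusted p 0.106). Probe sets therefore gave the same direction at day 7 and different calls at day 4.

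Other genes known from endothelium were set beside the 35. Over all genes tested, 41.8% were higher and 21.4% lower at day 4 than in untreated samples, 32.1% higher and 22% lower at day 7, and 9.78% higher and 17.6% lower at day 7 than at day 4, and each list is read against these shares. Of 20 tested genes of a second endothelial list, 16, or 80%, were higher and 1 lower at day 7 than in untreated samples (median 1.56; 15 and 2 without untreated replicate 3), and 8, or 40%, were higher and 1 lower at day 4 (median 0.69; 12 and 3 without that array). Ptprm, a phosphatase of junctions, was higher by 2.09 at day 7 (SE 0.21, adjusted p 1.1e-04), and S1pr1, the receptor for sphingosine 1-phosphate, by 0.82 (SE 0.12, adjusted p 5.7e-04). Of 8 capillary genes, 6, or 75%, were higher at day 7 (median 1.74) and 1, or 12.5%, was higher and 2 lower at day 4 (3 and 2 without untreated replicate 3). Slc9a3r2, a scaffold protein, differed by 3.11 (SE 0.21), the fatty acid transporter Cd36 by 3.08 (SE 0.56), Aqp1, a water channel, by 2.54 (SE 0.50), and Timp4, a protease inhibitor, by 2.49 (SE 0.23). Their adjusted p were at most 0.00268. Without untreated replicate 3, Cd36 differed by 3.84 and Aqp1 by 3.24.

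Arterial and venous lists had smaller medians than the capillary list at day 7. Against 32.1% higher and 22% lower over all genes, 11 of 15 arterial genes, or 73.3%, were higher and 1 lower (median 0.90; 11 and 2 without untreated replicate 3), and 6 of 10 venous genes, or 60%, were higher and 1 lower (median 0.69). The venous genes had 7 higher, or 70%, and 1 lower at day 4, against 41.8% and 21.4% (median 0.84) and a median of 0.02 between day 4 and day 7. Dll4, the Notch ligand of arteries and tip cells, was higher by 1.09 at day 4 and 1.82 at day 7 (SE 0.13, adjusted p 2.2e-05). Cxcr4, which thymocytes also express, was lower by 2.64 at day 7 (difference -2.64, SE 0.26, adjusted p 8.4e-05). Among veins, Nr2f2, a factor of venous identity, was higher by 1.68 (SE 0.32, adjusted p 0.00215) and the chemokine receptor Ackr1 by 1.18 (SE 0.12, adjusted p 1.3e-04). Of 9 tip cell genes, 6, or 66.7%, were higher and 1 lower at day 7 (median 1.07). The lymphatic list had 3 tested genes, of which 2 were higher and 1 lower, and its defining genes Prox1, Lyve1 and Stab2 were below the detection level on all arrays. The difference between lists was not tested.

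Of 18 other endothelial transcription regulators, 12, or 66.7%, were higher and 2, or 11.1%, lower at day 7 (median 0.83), against 32.1% and 22% of all genes. Hey1, a Notch target, was higher by 2.07 at day 4 (SE 0.10, adjusted p 5.4e-07) and 1.46 at day 7. Ets1, which is abundant in T cells, was lower at day 4 (difference -2.89, SE 0.15, adjusted p 8.1e-07) and at day 7 (difference -1.38). Of 12 ligands of the receptors above, 8, or 66.7%, were higher and 1 lower at day 7 (median 0.76), and 1, or 8.33%, was higher and 2 lower between day 4 and day 7, where 9.78% of all genes were higher. Apln, the ligand of Aplnr, was higher by 0.81 at day 4 and 1.53 at day 7 (SE 0.11, adjusted p 2.5e-05). Vegfd was higher by 3.28 at day 4 (SE 0.28, adjusted p 1.7e-05) and 2.07 at day 7, and fell between them (difference -1.20, adjusted p 0.0141). Vegfc was higher by 1.26 at day 7 (SE 0.15, adjusted p 1.9e-04). Of 21 partners of the receptors and junctions, 8, or 38.1%, were higher and 5, or 23.8%, lower at day 7 (median 0.22), both near the shares of all genes. Ramp1, which pairs with Calcrl to form the receptor for CGRP, was lower at day 4 (difference -3.87, SE 0.22, adjusted p 1.7e-06) and day 7 (difference -1.82), opposite to Ramp2. It averaged 9.32, 5.45 and 7.50 in untreated, day 4 and day 7 samples, where Ptprc averaged 12.22, 4.64 and 9.51. The part of blood cells in the level of Ramp1 was not tested. Calcb, a CGRP gene, was also lower at both days, by 1.52 and 2.49 (differences -1.52 and -2.49, SE 0.33, adjusted p 0.00332 and 3.6e-04).

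Markers of the cells around vessels and of other stroma moved with the endothelial genes, in part. The shares of all genes were again 41.8% higher and 21.4% lower at day 4 and 32.1% and 22% at day 7. Of 7 pericyte genes, 5, or 71.4%, were higher and 1 lower at day 4 (median 1.38) and 6, or 85.7%, were higher at day 7 (median 1.26), with array means of 6.52 to 6.94, 7.69 to 7.97 and 8.05 to 8.24 in the 3 groups. The channel gene Kcnj8 was higher by 2.90 at day 7 (SE 0.26, adjusted p 5.9e-05) and Higd1b by 2.00 (SE 0.19, adjusted p 7.7e-05). All 10 fibroblast genes were higher at day 4 (median 1.28) and 9 at day 7 (median 0.74), while 0 were higher and 3, or 30%, lower between day 4 and day 7, against 9.78% and 17.6% of all genes. Of 7 mesothelial genes, 6 were higher at each day (medians 1.15 and 1.84). Of 12 epithelial genes, 6, or 50%, were higher and 1 lower at day 4 (median 0.24), near the share of all genes, and 7, or 58.3%, were higher and 2 lower at day 7 (median 0.36). Of 6 smooth muscle genes, 1 was higher at day 7 and 2 were lower at day 4. Of 5 macrophage genes tested, 1 was higher and 2 lower at each day, and Adgre1, Cd68 and C1qa were below the level on all arrays. Of 5 progenitor genes, 3 were higher and 2 lower at each day, and the tested B cell gene Cd79b was lower at day 7. In the step from day 4 to day 7 the median was 1.87 for the endothelial genes and -0.48 for the fibroblast genes. Other lists rose in this step too. Of 6 smooth muscle genes, 4, or 66.7%, were higher (median 1.08), and of 11 thymocyte genes, 9, or 81.8% (median 3.33). Of 7 pericyte genes, 3, or 42.9%, were higher and 2 lower (median 0.10), and of 7 mesothelial genes, 2, or 28.6%, were higher (median 0.62). Of 12 epithelial genes, 3, or 25%, were higher and 1 lower (median -0.07). The part of any of these cell types in the results was not tested.

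**Figure D4:**
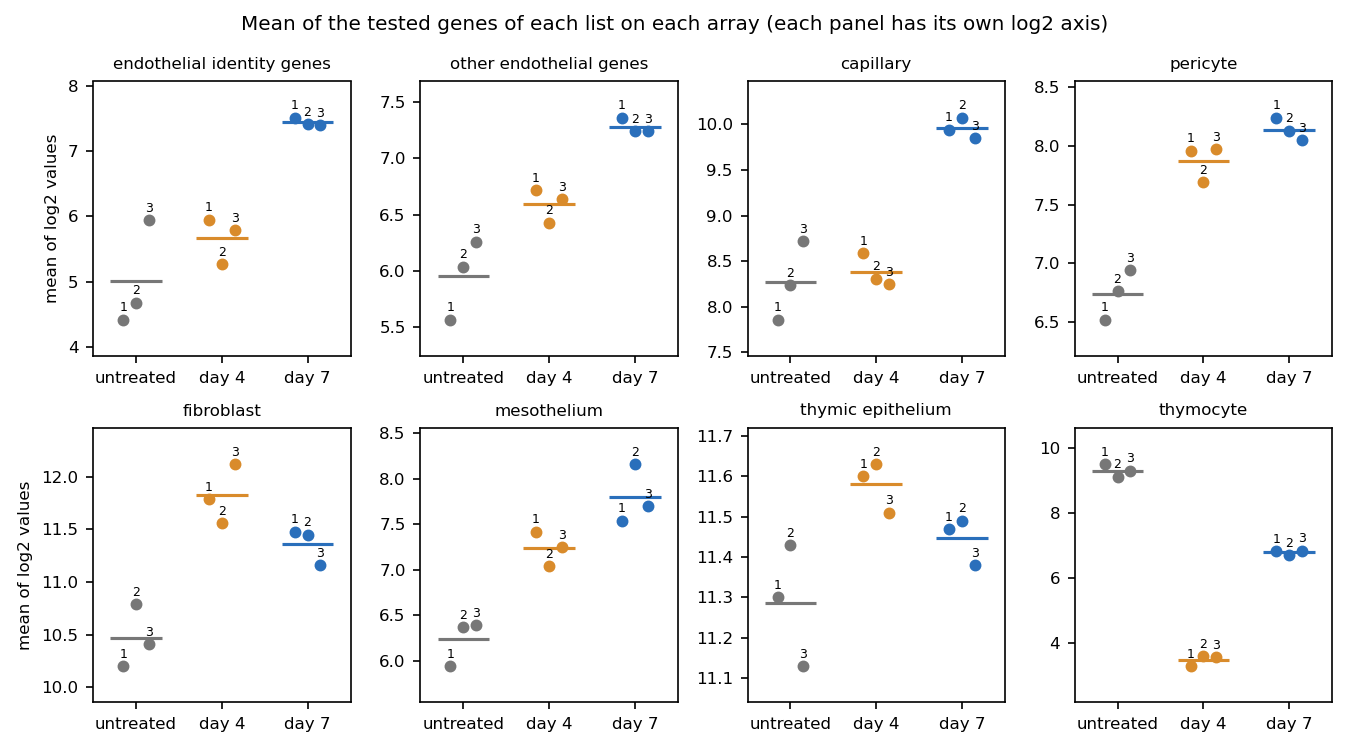
Mean log2 value of each gene list on each array (points, 3 per group) for the tested endothelial genes and for other lists. The endothelial mean is 4.42 to 5.94 in untreated samples and 7.40 to 7.51 at day 7, whereas the thymocyte mean goes from 9.12 to 9.50 down to 3.30 to 3.61 at day 4.

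Because blood cell transcripts were so much higher in untreated samples, the differences were also computed relative to other stromal cells. When each array was centred on the mean of the epithelial list, the median of the endothelial genes was 0.58 at day 4, 2.36 at day 7 and 2.01 between the days, against -0.10, -0.07 and 0.03 over all genes. Centred on the fibroblast list it was -0.48, 1.63 and 2.34, against -1.16, -0.81 and 0.36 over all genes. Centred on the pericyte list it was -0.26, 1.12 and 1.61, against -0.94, -1.31 and -0.37. The median at day 4 thus lay above 0 relative to all genes and to epithelium and below 0 relative to fibroblasts and pericytes, and at day 7 it was above 0 under all of these. The number of genes higher at day 4 was 4, 0 and 1 under these centrings in turn, where the deposited scale gave 10, and the number lower was 3, 13 and 10, where it gave 1. The share of called genes that were higher, over all genes, was 66.1% at day 4 on the deposited scale and 42.9%, 2.49% and 4.99% under the centrings. At day 7 it was 59.3%, against 44.1%, 4.55% and 1.36%, and between the days 35.8%, against 55.1%, 87.2% and 14.2%.

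**Figure D5:**
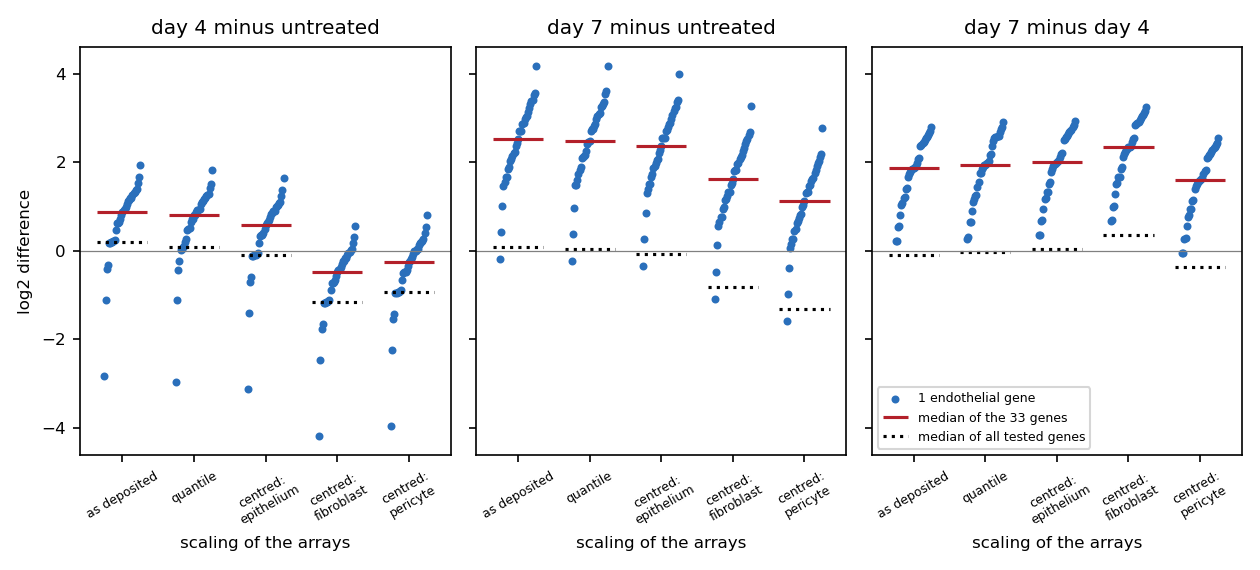
Log2 differences of the 33 tested endothelial genes (points) and their median under the deposited scale and under other scalings, in the 3 comparisons. At day 4 the median lies between -0.48 and 0.88, on both sides of 0, and at day 7 it stays between 1.12 and 2.52.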

How the data were processed

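For each of the 9 arrays the authors deposited log2 values, 1 for every probe set, and the submitters' processing notes name GCRMA as the method. GCRMA corrects the background by probe sequence, normalizes and summarises probes; which version and options were used is not given in the sources used here. That the scale is log2 was read from the range of the values, and scanner files were not used. Values are floored at 2.27, which compresses differences of dim genes.

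Of 45101 probe sets, 34945 had a single gene symbol in the platform annotation, 932 several, 9160 none, and 64 were controls. One model with a term per group was fitted to the 10937 genes in limma 3.58.1 (lmFit, eBayes, R 4.3.3) with Benjamini-Hochberg adjustment at 0.05. The code was run on simulated data with independent noise for each gene and few changed genes. That run does not cover shifts that many genes share on an array, or a table in which most genes change. A group below 4 on all its arrays gives a lower bound of a fold, computed from 4, and no fold is given where both groups are below it. Figures were drawn with matplotlib 3.10.9.

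The 35 genes and the lists beside them were chosen with earlier results of these data known, so counts are read against the shares of all genes tested and no list has a test. Named genes outside the 35 are up to 4 per list with the smallest adjusted p at day 7, plus, where fewer than 2 passed, the 2 largest differences, and the 8 genes whose profile over the arrays was nearest to that of the 35. Alternatives were the filter, the choice of probe set, other scalings, the variance model, array weights, the replicate number as a block and leaving out each array.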

Additional observations from a re-analysis of the deposited data

How the results depend on the processing

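At day 7 the endothelial genes stayed above untreated under all alternatives run, with 25 to 32 genes higher. The count was 25 centred on the pericyte list, with all 33 tested, and 25 at a filter of 6, where fewer were tested. Under the fibroblast and pericyte centrings 1 and 2 genes were lower at day 7, against 7119 and 9838 of all 10937 genes. The median was 1.63 and 1.12 in place of 2.52. At day 4 the count of 10 higher genes became 2 with no filter on dim genes, where 4415 of all 18193 genes were higher. It became 4, 0 and 1 centred on the epithelial, fibroblast and pericyte lists, and 26 with array weights. Of all 10937 genes, 2699, 220 and 426 were higher under the 3 centrings, and 5055 with array weights. The cause was not tested. The 1 lower gene became 3, 13 and 10 under the 3 centrings and 2 with array weights. Over all genes, 3589, 8609 and 8115 were lower under the centrings and 2791 with array weights. The median at day 4 was -0.48 and -0.26 under the fibroblast and pericyte centrings and 1.52 with array weights. Between day 4 and day 7, 25 higher genes became 14 with no filter, and the median of 1.87 became 1.29 with the mean of all probe sets, 2.34 with fibroblast and 1.61 with pericyte centring. Leaving out 1 array at a time gave 4 to 24 higher and 1 to 2 lower genes at day 4, 30 to 32 higher at day 7, and 14 to 29 higher between the days.

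The sign of single genes turned mostly at day 4. Centred on the epithelial list, the difference was -0.04 for Cldn5, -0.12 for Erg, -0.11 for Cd93, -0.09 for Calcrl, -0.07 for She and -0.10 for Ecscr. Centred on the fibroblast list, it was -0.56 for Cdh5, -0.09 for Kdr, -0.37 for Tek, -0.48 for Flt1, -0.17 for Emcn, -0.24 for Eng, -0.30 for Esam, -1.11 for Cldn5, -0.65 for Robo4, -0.41 for Sox17, -0.05 for Sox18, -1.18 for Erg, -0.17 for Plvap, -0.71 for Vwf, -0.72 for Ptprb, -0.44 for Adgrl4, -0.03 for Podxl, -0.89 for Clec14a, -1.18 for Cd93, -0.73 for Nos3, -1.15 for Calcrl, -1.14 for She, -0.22 for Myct1 and -1.16 for Ecscr. Centred on the pericyte list, it was -0.34 for Cdh5, -0.15 for Tek, -0.26 for Flt1, -0.01 for Eng, -0.07 for Esam, -0.88 for Cldn5, -0.43 for Robo4, -0.18 for Sox17, -0.96 for Erg, -0.49 for Vwf, -0.49 for Ptprb, -0.22 for Adgrl4, -0.67 for Clec14a, -0.95 for Cd93, -0.50 for Nos3, -0.93 for Calcrl, -0.91 for She and -0.94 for Ecscr. Sox7 was at 0.01 with array weights. Leaving out 1 array at a time gave -0.20 to 1.09 for Cldn5, -0.002 to 0.37 for Erg and -0.27 to 0.91 for Cd93, each lowest without untreated replicate 1 or 2 and highest without untreated replicate 3; Cldn5 was at -0.14 without untreated replicate 1, and Cd93 at -0.10 without untreated replicate 2 and -0.05 without day 4 replicate 1. At day 7, Calcrl was at -0.47 under fibroblast centring and at -0.97 under pericyte centring, where Ecscr was at -0.38. Between the days, pericyte centring put Ramp2 at -0.04 and Calcrl at -0.05. Over all single genes and alternatives, 1596 values kept their sign and their side of the threshold, 125 lost and 76 gained a call, and 60 changed sign.

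The replicate numbers of the titles did not pair the arrays, as deviations of same-numbered arrays correlated between -0.12 and 0.18. With the number as a replicate block, 11 genes were higher and 2 lower at day 4, and 24 were higher between the days. The 3 arrays a group limit the precision, and values near the floor show only that a transcript was dim.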

Other observations

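Outside the 35 genes, 41 genes had profiles over the 9 arrays within a root mean square distance of 0.5 log2 units of the median profile of the endothelial genes, against a median distance of 1.21 for all genes and 0.48 for the tested endothelial genes. The 8 nearest were Cav1 (0.11), Adgrf5 (0.21), Arap3 (0.22), Aqp1 (0.23), Ctla2a and Cyyr1 (0.25), and Tmem88 and Rasgrp3 (0.27). Cav1, the coat protein of caveolae, read 8.14, 8.64 and 9.96 in untreated, 9.96, 9.31 and 9.76 at day 4, and 11.38, 11.48 and 11.46 at day 7. Its untreated replicate 3 was thus at the height of the day 4 arrays, as for most of the 35. Tmem88 was higher at day 4 (0.96, SE 0.32, adjusted p 0.0251 in limma), and the other 7 did not pass the test there. These genes were chosen by likeness to the pattern, so their differences are a description. Among the 35, Esam (0.15) and Flt1 (0.16) were nearest and Icam2 (1.64), Calcrl (1.03) and Pecam1 (0.93) farthest.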
